A study of Mus musculus with 8 samples.

Results

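Klrg1 and 7 other receptor genes known from natural killer (NK) cells were followed across regulatory T cells (Tregs) of wild-type mice (WT) and of mice labelled as Bcl6 knock-out (KO). Tregs are the FoxP3+ CD4 T cells that restrain immune responses. The 8 genes, of 19937 genes measured by a probe set with a single gene symbol, were Klrg1, Klrk1, Klrd1, Klrc1, Klrb1c, Klre1, Klri2 and Ncr1. They were chosen by measured values, because Klrg1 had the largest KO minus WT difference of all genes. The Klrg1 difference between KO and WT is therefore given as a description with no test, and the question was whether the other 7 receptor genes moved with it. Each of the 8 genes had 1 probe set.

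KLRG1 is an inhibitory C-type lectin-like receptor of NK cells, effector T cells and a differentiated subset of Tregs. It binds classical cadherins on other cells, and its cytoplasmic tail carries an inhibitory motif that can recruit the phosphatases SHP-2 and SHIP. Most of its relatives lie together in the NK gene complex and encode activating or inhibitory receptors that NK cells use to read MHC class I or stress-induced ligands. Ncr1 belongs with them by function and not by fold: it encodes NKp46, an activating receptor of the immunoglobulin type.

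FoxP3+ Tregs had been sorted from WT mice and from mice labelled Bcl6-/-. Bcl6 encodes a transcriptional repressor of the zinc finger family. Cells of both genotypes received antibodies to CD3 and CD28 over 16 h, and each of 8 Affymetrix whole-transcript arrays was prepared from 100 ng of RNA. Each genotype had 4 arrays, in preparations 1 and 2 with an array A and an array B each. The labels used here do not give the age of the mice, the Bcl6 allele or the tissue the cells came from. Nor do they tell if a preparation or a letter stands for a mouse, a pool or a culture, so the spread behind each p-value is that between these samples and may be technical. Precision is limited by the number of arrays. Values are log2 intensities per probe set, on which a difference of 1 is a factor of 2.

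The Bcl6 probe set ran opposite to the label: it read at least 8.51 in the KO arrays and 7.86 to 8.36 in WT, every KO array above every WT array. The difference was 0.59 (SE 0.29, adjusted p = 0.701), and in KO 1 it was 0.78 (adjusted p = 0.00279). Which part of the gene the probe set reads is not known here, and these arrays are called KO-labelled. Y-linked genes ran with the label: the mean of 3 of them was 4.62 to 4.80 in KO-labelled and 6.94 to 8.30 in WT arrays. The sex of the cells was not tested, and a difference in it cannot be told apart from genotype in the comparisons here. The KO-labelled preparations also differed from each other. The spread of the deposited log2 values, as an SD per array, was 1.87 and 1.84 in KO 1, 1.65 and 1.61 in KO 2, and 1.56 to 1.70 in WT. Between KO 1 and KO 2, 58.8% of all genes passed an adjusted p under 0.05, so KO 1 and KO 2 are also given separately for the 8 receptor genes. The sorted cells carried the markers of their label: Foxp3, Il2ra, Ikzf2, Ctla4, Cd4 and Cd3e had values of at least 8.96 on every array.

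Klrg1 was high in all KO-labelled arrays and low in all WT arrays. Its log2 level was 11.46 in KO 1A, 11.45 in KO 1B, 10.93 in KO 2A and 10.76 in KO 2B. In WT it was 7.38 in 1A, 7.07 in 1B, 7.08 in 2A and 6.72 in 2B. The lowest KO-labelled array stood far above the highest WT array, while the WT arrays lay within 0.66 of each other. The means were 11.15 ± 0.36 and 7.06 ± 0.27 (SD, n = 4 arrays each). They differed by 4.09 (SE 0.30, 95% interval 3.44 to 4.73), a 17-fold difference with an interval of 10.9 to 26.5.

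In KO 1, Klrg1 was 4.39 above WT (95% interval 4.03 to 4.76), or 21.0-fold. In KO 2 it was 3.78 above WT (3.42 to 4.15), or 13.8-fold. Both preparations carried the difference. By size it ranked 3 of all 19937 genes in KO 1 and 1 in KO 2. Klrg1 was chosen by its difference over both preparations, so these ranks and intervals are a description. The same WT arrays served both comparisons. Klrg1 itself was higher in KO 1 than in KO 2 by 0.61 (SE 0.19, 95% interval 0.19 to 1.03, limma adjusted p = 0.0199). After quantile normalization, which gives all arrays the same distribution, it was 0.34 with an adjusted p of 0.172, and after median centring 0.89 with 0.0109. Of 4 alternatives 3 kept the call.

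The order of the Klrg1 preparation means was KO 1 at 11.45, KO 2 at 10.84, WT 1 at 7.22 and WT 2 at 6.90. WT 1 exceeded WT 2 by 0.33, close to the gaps of 0.31 and 0.36 between arrays A and B within them. The arrays of WT 1 and WT 2 overlapped, so these neighbours did not differ beyond their spread. Arrays A and B differed by 0.013 in KO 1 and by 0.17 in KO 2. In bulk RNA such as this, fewer cells of a type and less RNA per cell cannot be told apart, and the Klrg1 values do not say whether more cells carried the transcript or each carried more.

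**Figure D1:**
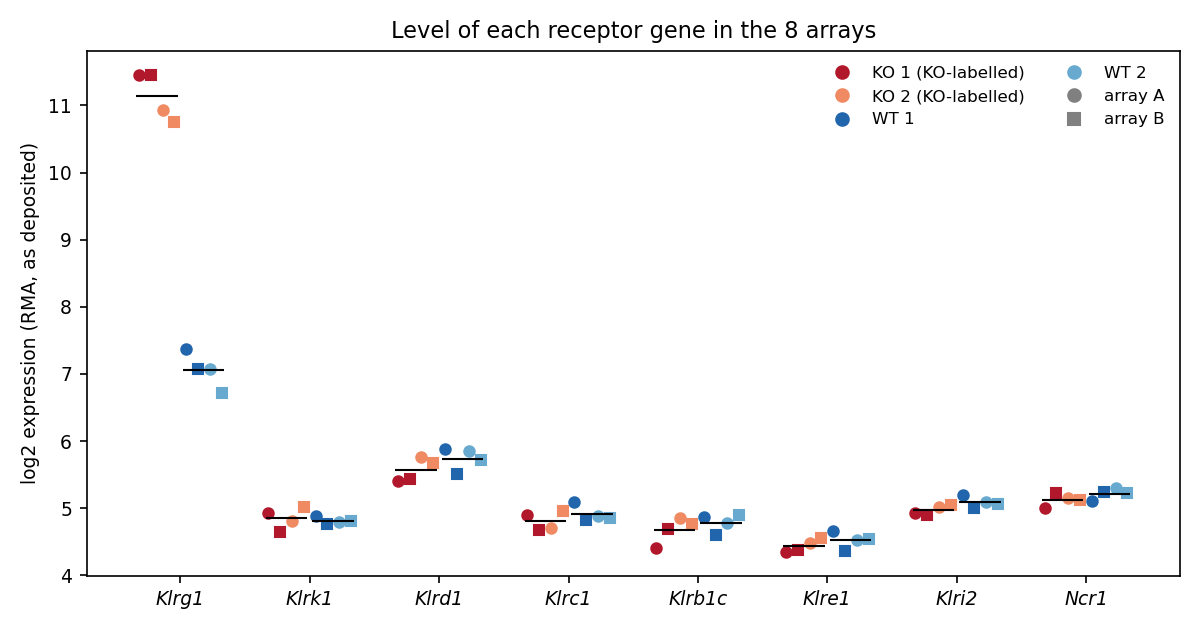
Log2 level of each of the 8 receptor genes on every array, with KO-labelled and WT arrays grouped by preparation. Klrg1 lies between 10.76 and 11.46 in the KO-labelled and between 6.72 and 7.38 in the WT arrays, while the array values of each other gene overlap between genotypes.

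No rise of this kind was seen in the 7 other receptor genes. Of these, 0 passed an adjusted p under 0.05 in either direction, and 0 had an unadjusted p under 0.05. Over all genes, 0.12% were called higher and 0.015% lower by the same limma test, so few calls were to be had from the whole table. The arrays of KO-labelled and WT cells overlapped for all 7, where 6.67% of all genes had every KO-labelled array above every WT array and 2.11% every KO-labelled array below. The median difference of the 7 was -0.10, beside -0.06 over all genes, with 1 above 0 and 6 below. Their intervals bound the change in probe set signal, which need not equal the change in transcript. The highest upper limit of the 7 was 0.36, a 1.28-fold rise in signal. The lowest lower limit was -0.58, a 1.49-fold fall.

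All 7 probe sets had a mean under log2 6, and their values over all arrays ran from 4.35 to 5.88. The deposited values hold no detection calls, so whether these probe sets are above background is not known, and a change in a transcript below detection would not be seen. Most dim probe sets had differences below 0. Among the 4258 genes with a mean under log2 6, 3492 had a difference below 0, with a median of -0.12, and the median of the 7 was close to it.

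Among the activating receptors, Klrk1 encodes NKG2D, which binds stress-induced ligands. Its level was 4.93, 4.64, 4.80 and 5.02 in KO 1A, 1B, 2A and 2B, and 4.88, 4.76, 4.79 and 4.81 in the same order of WT arrays. The WT values lay inside the range of the KO-labelled ones. The difference was 0.04 (SE 0.15, 95% interval -0.29 to 0.36, adjusted p = 0.892), the only one of the 7 above 0, and it was -0.03 in KO 1 and 0.10 in KO 2.

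Klrb1c encodes NK1.1, the surface antigen by which NK cells are recognised in several mouse strains. It read 4.41 and 4.69 in KO 1, 4.85 and 4.76 in KO 2, 4.87 and 4.61 in WT 1, and 4.77 and 4.89 in WT 2. KO 1A was the lowest of the 8 arrays, and the other 3 KO-labelled arrays lay within the WT range. The difference was -0.11 (SE 0.16, 95% interval -0.45 to 0.24, adjusted p = 0.741), and it was -0.23 in KO 1 and 0.02 in KO 2.

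Ncr1 read 5.0 and 5.22 in KO 1, 5.14 and 5.13 in KO 2, 5.10 and 5.23 in WT 1, and 5.30 and 5.23 in WT 2. WT 1A lay among the KO-labelled values, and the other WT arrays lay above all of them. The difference was -0.09 (SE 0.14, 95% interval -0.39 to 0.20, adjusted p = 0.740), and KO 1 and KO 2 gave -0.10 and -0.08.

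Klrd1 and Klrc1 encode CD94 and NKG2A, which pair into an inhibitory receptor for the non-classical MHC molecule Qa-1. Klrd1 read 5.40 and 5.44 in KO 1, 5.76 and 5.67 in KO 2, 5.88 and 5.51 in WT 1, and 5.84 and 5.71 in WT 2. Both KO 1 arrays were below every other array, and both KO 2 arrays were among the WT values. The difference over all arrays was -0.17 (SE 0.19, 95% interval -0.58 to 0.24, adjusted p = 0.701). In KO 1 against WT it was -0.32 with an adjusted p of 0.0316, and in KO 2 it was -0.02.

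Klrc1 read 4.89 and 4.68 in KO 1, 4.71 and 4.96 in KO 2, 5.09 and 4.83 in WT 1, and 4.88 and 4.85 in WT 2. The arrays of the genotypes overlapped, and the difference was -0.10 (SE 0.16, 95% interval -0.44 to 0.24, adjusted p = 0.745), or -0.12 in KO 1 and -0.08 in KO 2. Klrc1 is close in sequence to Klrc2 and Klrc3, and probe sets of such paralogs may share signal. These differed by -0.05 and -0.01, neither called.

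Klre1 and Klri2 encode lectin-like receptors that can pair with each other at the NK cell surface. Klre1 read 4.35 and 4.38 in KO 1, 4.48 and 4.55 in KO 2, 4.66 and 4.36 in WT 1, and 4.53 and 4.53 in WT 2. Klri2 read 4.93 and 4.89 in KO 1, 5.01 and 5.04 in KO 2, 5.20 and 5.01 in WT 1, and 5.09 and 5.06 in WT 2. For both genes the KO 2 arrays were among the WT values. The difference of Klre1 was -0.08 (SE 0.12, 95% interval -0.35 to 0.19, adjusted p = 0.748), or -0.16 in KO 1 and -0.0030 in KO 2. That of Klri2 was -0.12 (SE 0.12, 95% interval -0.38 to 0.14, adjusted p = 0.701), or -0.18 in KO 1 and -0.06 in KO 2.

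By preparation, the differences of the 7 genes were all below 0 in KO 1 and close to 0 in KO 2. Against WT, 0 of the 7 rose and 1, Klrd1, fell in KO 1, where 30.4% of all genes were called higher and 37.4% lower. All 7 had a mean under log2 6, and of the 4258 such dim genes 170 were called higher and 1962 lower in KO 1. In KO 2, 0 of the 7 were called in either direction, beside 0.687% of all genes higher and 0.115% lower. Their median was -0.16 in KO 1 and -0.02 in KO 2, and that of all dim genes was -0.24 and 0.0024. Between KO 1 and KO 2, 0 of the 7 were called. After quantile normalization the median of the 7 in KO 1 was 0.03 with 0 called. After median centring of the arrays it was 0.09 with 0 called. The part of the wider spread of the KO 1 arrays in these values was not tested.

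**Figure D2:**
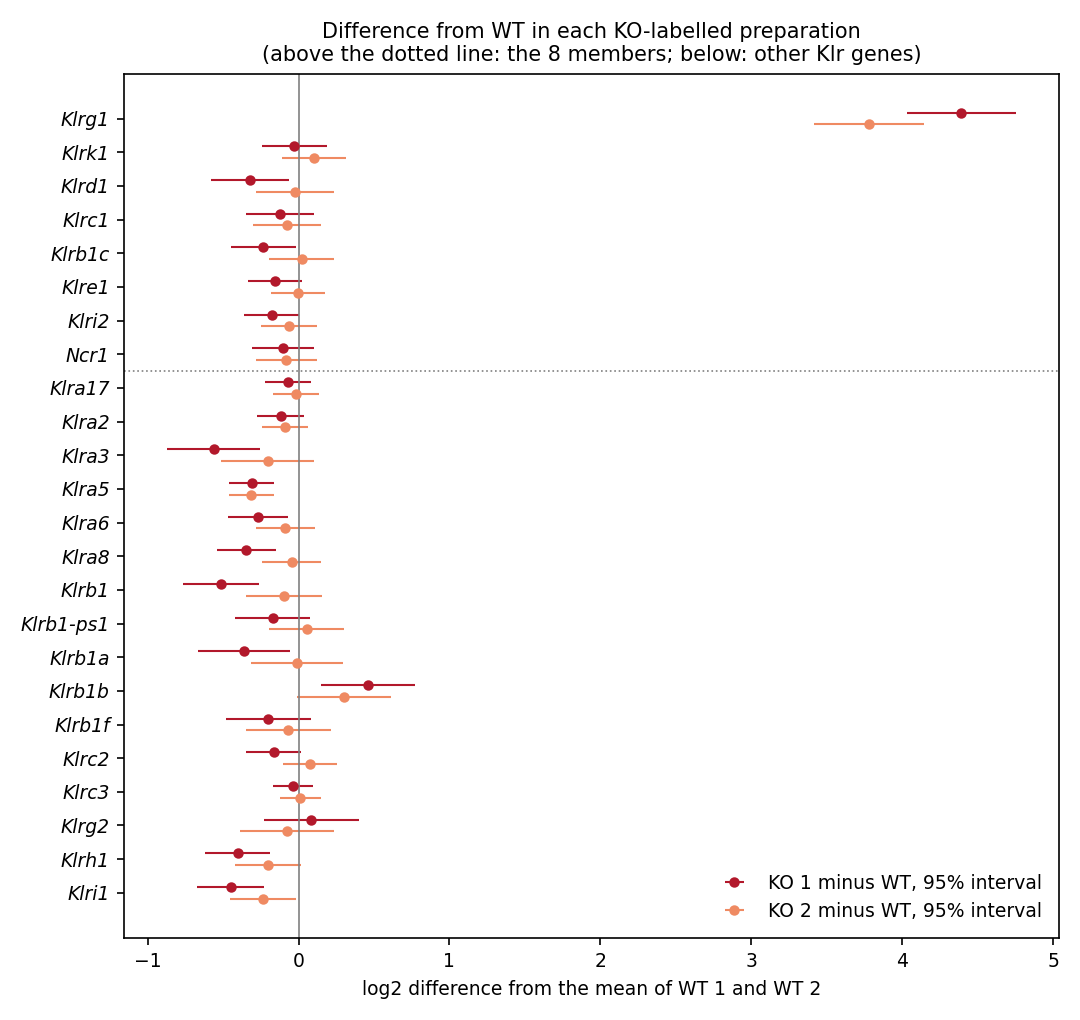
Log2 difference from the mean of the WT arrays for KO 1 and KO 2 separately, with 95% intervals, for the 8 receptor genes above the dotted line and 16 other Klr genes below it. Klrg1 stands at 4.39 in KO 1 and 3.78 in KO 2, the 7 others of the 8 lie between -0.32 and 0.10, and the 16 between -0.56 and 0.46.

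The remaining 16 Klr genes on the array, which include the Klra (Ly49) receptors for MHC class I, the Klrb1 group and a pseudogene, included no called gene. Of these 16, 2 had a difference above 0 and 14 below, and the median was -0.16. The mean was under log2 6 for 11 of the 16. Of all 4258 such dim genes, 766 were above 0 and 3492 below. In KO 1 against WT, 1 of the 16 was called higher and 8 lower, beside 30.4% and 37.4% of all genes, and 1962 of the 4258 dim genes were lower there. In KO 2, 0 of the 16 were called, beside 0.687% higher and 0.115% lower. Klrg2, the gene nearest to Klrg1 in name, differed by 0.0042. The sizes furthest from 0 were -0.38 for Klra3, 0.38 for Klrb1b and -0.34 for Klri1, a partner of Klre1. Klra3 was at -0.56 in KO 1 and -0.20 in KO 2, and Klri1 at -0.45 and -0.24.

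Klrb1b encodes an inhibitory receptor for Clec2d. It read 6.52 and 6.23 in KO 1, 6.40 and 6.04 in KO 2, 5.96 and 5.69 in WT 1, and 6.06 and 5.96 in WT 2. The genotypes overlapped by the values of KO 2B and WT 2A alone, and the adjusted p was 0.701. In KO 1 it was higher than WT by 0.46 (adjusted p = 0.0147), and in KO 2 by 0.30 with no call.

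Klra5 was the 1 gene of the 16 with an unadjusted p under 0.05, beside 1235 of all 19937 genes, and is named for that reason. It read 4.46, 4.42, 4.50 and 4.39 in KO-labelled arrays and 4.68, 4.74, 4.82 and 4.79 in WT arrays, with no overlap. The difference was -0.31 (SE 0.10, adjusted p = 0.494), and it was -0.31 in each preparation. Klra6 also did not overlap, at -0.18. With it, 2 of the 16 had every KO-labelled array below WT and 0 above, beside 2.11% and 6.67% of all genes. Of the 4258 dim genes, 129 lay below in this way and 73 above. Klra genes are near-identical to each other and their probe sets may share signal. A further 4 probe sets that list several Klr symbols differed by -0.35 to -0.08.

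The genes around Klrg1 on chromosome 6 showed no rise like it. In the gene order of RefSeq for assembly GRCm38.p6, the 3 nearest measured genes on one side were Mug1, Mug2 and Gm10319, with differences of -0.18, -0.15 and 0.08. On the other side were Phc1, a Polycomb subunit, with 0.13, 1700063H04Rik with -0.06 and Rimklb with -0.17. Of these 6 neighbours 0 were called, beside 0.12% of all genes higher and 0.015% lower. All 6 overlapped between genotypes, as did 18187 of all 19937 genes. In KO 1 they ran from -0.42 for Rimklb to 0.21 for Phc1, and in KO 2 from -0.01 to 0.08. Against WT in KO 1, Rimklb (adjusted p = 0.0177) and Mug2 (-0.36, adjusted p = 0.0486) were called lower, as were 37.4% of all genes. The NK gene complex, taken from Klrb1a to Klra2 on the same chromosome, lies 106 measured genes away from Klrg1. It held 39 measured genes, 6 of the 7 other receptor genes among them, while Ncr1 lies on chromosome 7. Over these 39 genes 0 were called, beside 0.12% of all genes higher and 0.015% lower. Of the 39, 8 were above 0 and 31 below, and the median was -0.13. For KO 1 alone it was -0.20, and for KO 2 -0.05. The mean was under log2 6 for 25 of the 39. Of all 4258 such dim genes, 766 were above 0 and 3492 below, with a median of -0.12.

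The partners of these receptors were measured too. Among 12 genes of the neighbouring lectin group, 0 were called, beside 0.12% of all genes higher and 0.015% lower. The group includes the activation antigen Cd69 and the Clec2 ligands of the Klrb1 receptors, and its median was -0.14. The sizes furthest from 0 were -0.46 for Clec2i, 0.44 for Clec7a, the beta-glucan receptor Dectin-1, and -0.30 for Clec2h. The preparations differed here: Clec2i was at -0.18 in KO 1 and -0.74 in KO 2, Clec7a at 0.76 and 0.12, and Clec2h at -0.59 and -0.0021. Cd69 differed by 0.14. Of 14 listed ligands, 6 were measured and 0 were called, beside the same shares of all genes, with a median of -0.13. Among the cadherins that KLRG1 binds, Cdh1 differed by -0.11 and Cdh2 by -0.14. Cdh4 differed by -0.27, but was called lower in KO 1, at -0.56 (adjusted p = 0.0068), and stood at 0.03 in KO 2. It was 1 of the 6 ligands called lower in KO 1, with 0 higher, beside 37.4% and 30.4% of all genes. H60b, an NKG2D ligand, differed by -0.22. B2m, the light chain of MHC class I, differed by 0.46, with every KO-labelled array above WT and an adjusted p of 0.701.

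Among 14 adaptors, kinases and phosphatases that act beneath these receptors, 0 were called in the comparison of genotypes, and the median was 0.06. It was 0.34 in KO 1 and -0.07 in KO 2. Over all genes, 0.12% were called higher and 0.015% lower. In KO 1, 6 of the 14 were called higher and 2 lower, beside 30.4% and 37.4% of all genes. In KO 2, 0 were called, beside 0.687% and 0.115%. Hcst and Tyrobp, which encode the adaptors DAP10 and DAP12 of activating NK receptors, differed by -0.02 and -0.32, and Tyrobp was called lower in KO 1, at -0.44 (adjusted p = 0.0166). On the inhibitory side, Ptpn6 (SHP-1) differed by 0.0043 and Ptpn11 (SHP-2) by 0.35, which was 0.71 in KO 1 (adjusted p = 0.00207) and -0.02 in KO 2. Inpp5d, which encodes SHIP, read 10.27 and 10.34 in KO 1, 9.59 and 9.51 in KO 2, 9.03 and 9.57 in WT 1, and 9.31 and 9.10 in WT 2. Its KO 1 arrays stood above all others and its KO 2 arrays met the highest WT array. The difference was 0.68 (adjusted p = 0.701), where KO 1 gave 1.05 and KO 2 gave 0.30, the latter not called. Grb2 and Vav1 differed by 0.49 and 0.37. Grb2 stood 0.81 above WT in KO 1 and 0.18 in KO 2. Vav1 stood 0.83 above WT in KO 1 and at -0.09 in KO 2.

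Other receptors shared by NK and effector T cells gave a mixed picture. Of 14 measured, 0 were called, beside 0.12% of all genes higher and 0.015% lower. Of these 14, 2 had an unadjusted p under 0.05, and the median was -0.12. Over all 19937 genes, 1235 had an unadjusted p under 0.05. Tigit, an inhibitory receptor also known from activated Tregs, read 11.08 and 11.22 in KO 1, 10.44 and 10.37 in KO 2, 8.73 and 9.60 in WT 1, and 9.42 and 9.05 in WT 2. As with Klrg1, every KO-labelled array was above every WT array. The difference was 1.58 (SE 0.39, adjusted p = 0.287), with differences of 1.95 for KO 1 and 1.20 for KO 2, where the adjusted p was 0.0335. Havcr2, which encodes TIM-3, differed by 1.12 (adjusted p = 0.423), where KO 1 gave 1.78 and KO 2 gave 0.46. Lag3 differed by 0.95 (adjusted p = 0.701), and this lay in KO 1 alone, at 1.94 against -0.04 in KO 2. Slamf7 had every KO-labelled array below WT, at -0.20.

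Transcription factors of NK and effector lymphocytes were the list with a called gene. Of 11 measured, 1 rose and 0 fell, beside 0.12% and 0.015% of all genes. An unadjusted p under 0.05 was found for 6 of the 11, beside 1235 of all 19937 genes, and the median was 0.53. The list was chosen with earlier results of these data known, so these counts are a description. Id2, an inhibitor of E proteins needed by NK cells and effector T cells, read 9.76 and 9.63 in KO 1, 8.52 and 8.33 in KO 2, 6.27 and 6.63 in WT 1, and 6.03 and 6.04 in WT 2. Like Klrg1 it was high in both KO-labelled preparations and highest in KO 1. It rose by 2.82 (SE 0.35, adjusted p = 0.00652), with differences of 3.45 for KO 1 and 2.18 for KO 2. Without the WT 2 arrays the difference was 2.61 with an adjusted p of 0.559.

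Prdm1, which encodes BLIMP-1, stood 2.72 above WT in KO 1 and 1.24 above it in KO 2, and over all arrays the difference was 1.98 (adjusted p = 0.0564). The call turned on the processing: Prdm1 was called in 12 of 24 alternatives, among them preparation means (adjusted p = 0.0144) and the fits that left out KO 2B (0.0305), WT 1A (0.0322) or WT 1B (0.0193). Nfil3, needed for NK cell development, differed by 1.61 (adjusted p = 0.514): KO 1 was 2.78 above WT and KO 2 was 0.45 above it. The T-box factors that direct NK cell maturation were not called: Eomes differed by 0.06, and Tbx21 by 0.91 (adjusted p = 0.701), which was 1.71 in KO 1 and 0.11 in KO 2.

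**Figure D3:**
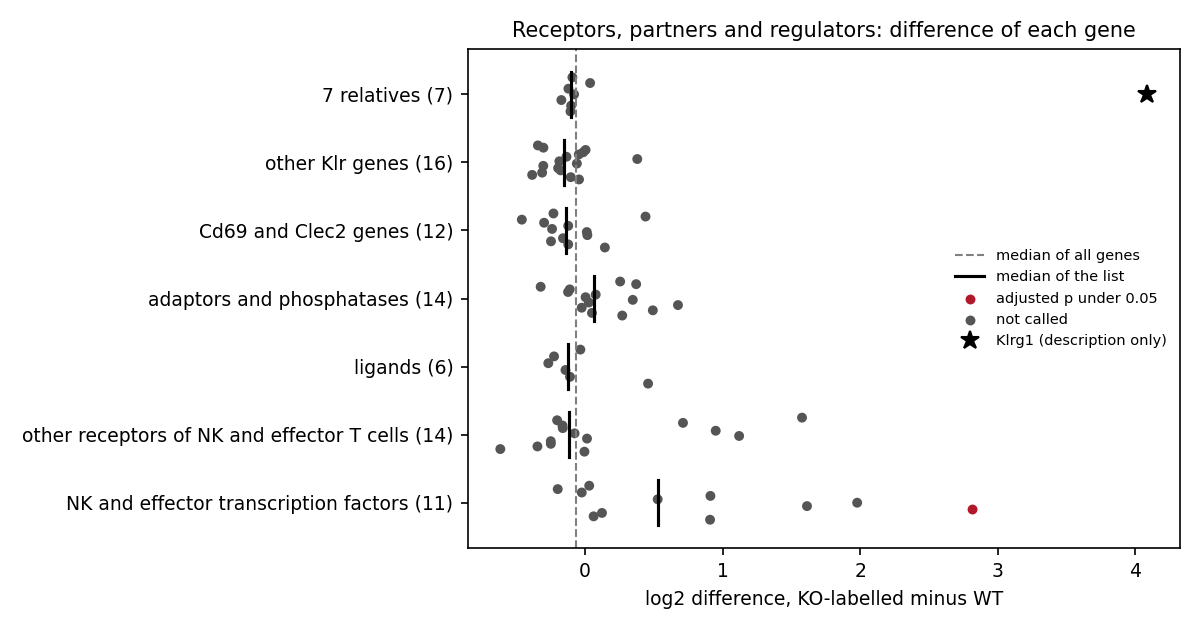
Log2 difference between KO-labelled and WT arrays for each measured gene of the 7 other receptor genes and 6 lists of relatives, partners and regulators, with bars at the list medians and a dashed line at the median of all genes, -0.06. Klrg1, at 4.09 as a star, and Id2, at 2.82, stand furthest to the right, and Id2 is the only gene of the lists called over all arrays by the limma test with preparation as a random block.

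Markers of NK cells were looked at beside the Klrg1 values. Of 10 measured NK markers, which include Ncr1, Klrb1c and Klre1, 0 were called, beside 0.12% of all genes higher and 0.015% lower. Differences were above 0 for 4 markers and below for 6. The groups overlapped for all 10, where 6.67% of all genes had every KO-labelled array above WT and 2.11% below. Their mean level was 6.03 to 6.21 in KO-labelled and 6.0 to 6.14 in WT arrays. Nkg7, a cytotoxic granule gene that effector T cells also express, was the furthest from 0 at 1.33 (adjusted p = 0.644), where KO 1 gave 2.39 and KO 2 gave 0.26. Without Nkg7 the mean level was 5.75 to 5.95 in KO-labelled and 5.88 to 6.02 in WT arrays. By preparation, the mean of all 10 was 6.14 to 6.21 in KO 1, beside a highest WT array of 6.14. In KO 2 it was 6.03 to 6.11, within the WT range. Without Nkg7 the mean was 5.75 to 5.84 in KO 1 and 5.88 to 5.95 in KO 2. In KO 1 against WT, 2 of the 10 were called higher (Nkg7 and Gzma) and 2 lower (Klra8 and Xcl1), beside 30.4% and 37.4% of all genes. The Treg markers differed in the same direction as Klrg1: all 6 had a difference above 0, beside 8616 of all 19937 genes. Their median was 0.70 and 0 were called. In KO 1 their median was 0.90, and 5 of the 6 were called higher, beside 30.4% of all genes. In KO 2 their median was 0.49, 0 were called, beside 0.687% of all genes higher, and Cd3e was at -0.08. Foxp3 read 11.06, 10.98, 10.52 and 10.45 in KO-labelled and lay between 9.65 and 10.27 in WT arrays. The part of these markers in the Klrg1 values was not tested.

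Across the 8 arrays the profile of Klrg1 was unlike that of its relatives. The values of Klrg1 spanned 4.74, and those of each of the 7 spanned 0.30 to 0.49. Pearson correlations of the 7 with Klrg1 ran from -0.70 to 0.13 over the 8 arrays, which fall into separate genotypes and preparations, and are given as a description. Genes with a profile like Klrg1 were ranked only among those with an SD of at least 0.5 over the arrays. The 7 relatives had SDs of 0.094 to 0.18 and could not enter that ranking. Among 2213 genes with an SD of at least 0.5 over the arrays, 43 had a correlation above 0.95 with Klrg1, as any gene with a steady gap between the genotypes would.

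The 6 highest were Ccr2 (0.994), a chemokine receptor of migrating leukocytes; Itgae (0.992), the CD103 integrin chain that binds E-cadherin; Neb (0.989), the giant muscle protein nebulin; S100a6 (0.988); Lamc1 (0.987), a laminin chain; and S100a11 (0.985). S100a6 and S100a11 encode small calcium-binding proteins. These genes were selected on the same arrays, so their differences are a description: 3.35 for Ccr2, 3.08 for Itgae, 1.65 for Neb, 2.57 for S100a6, 1.96 for Lamc1 and 1.18 for S100a11. Ccr2 exceeded WT by 3.80 in KO 1 and by 2.90 in KO 2, and Itgae by 3.40 and 2.75, the same order of preparations as for Klrg1. S100a11 had nearly no such step, with 1.19 and 1.17. E-cadherin, encoded by Cdh1, is a known ligand of both the Itgae product and KLRG1.

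**Figure D4:**
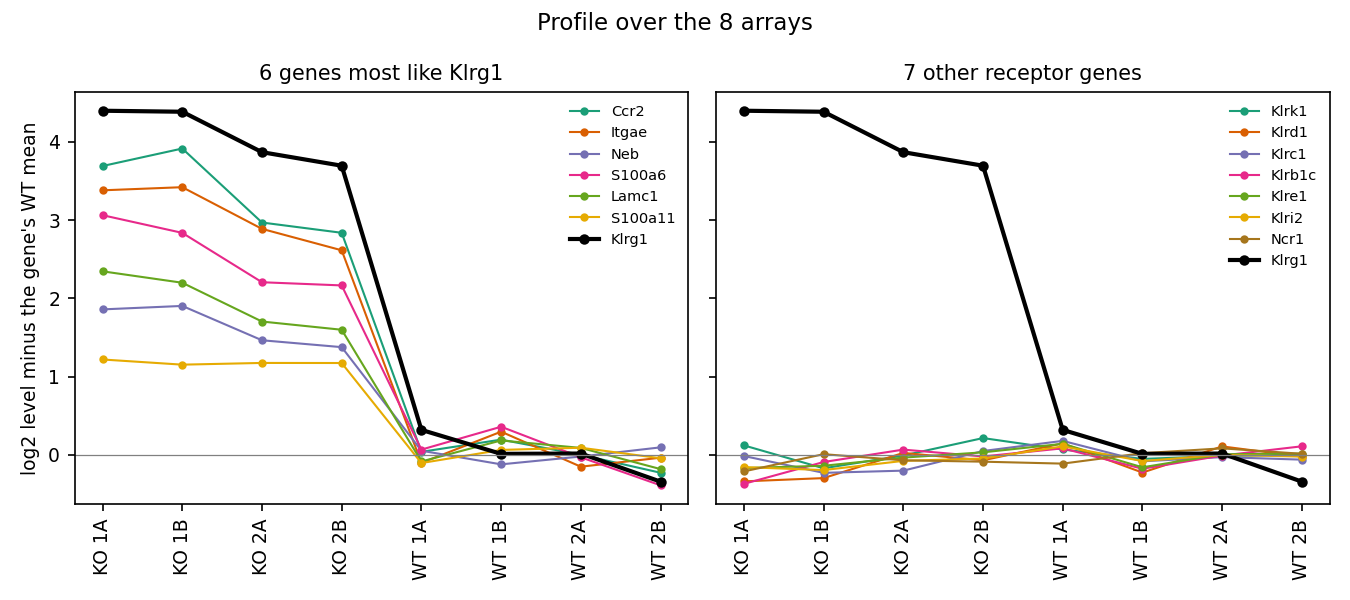
Log2 level on each array minus the mean of the WT arrays, for Klrg1 with the 6 genes of most similar profile and for Klrg1 with the 7 other receptor genes; lines only join the values of a gene, since arrays have no order. Klrg1, Ccr2 and Itgae are highest in KO 1 and lower in KO 2, and the 7 other receptor genes stay near 0 on all arrays.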

How the data were processed

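The deposited values are log2 expression of probe sets. The authors used Partek and RMA, as the submitters' processing notes name them; the sources used here give no versions. They were used without further normalization, and all 8 columns were matched to samples, leaving 0 unused. Of 28768 probe sets, 21771 had 1 symbol in the platform annotation, 1557 several and 5440 none; for 999 genes with several sets, that with the highest mean was kept, giving 19937 genes. No 2 arrays were identical.

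KO-labelled arrays were set against WT arrays in R 4.3.3 with limma 3.58.1 (eBayes with a variance trend), with preparation as a random block (duplicateCorrelation, correlation 0.617, 12.8 degrees of freedom). KO 1, KO 2, WT 1 and WT 2 were also fitted as separate groups with arrays as replicates (12.4 degrees of freedom), which takes letters as independent. KO 1 and KO 2 were each set against the mean of WT 1 and WT 2. The spread in that fit is the one between arrays A and B within a preparation. P-values are two-sided and Benjamini-Hochberg adjusted over all 19937 genes, called under 0.05. The scripts were tested on simulated data.

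The members and lists were chosen with earlier results of these data known. Named by rule were the members, Foxp3, Bcl6, called list members and the 3 of each list furthest from 0, the 6 genes most like Klrg1 and 3 neighbours on each side; other genes were named for their role after their values were seen. Shared preparation numbers were not taken as a pairing: the differences between preparations 1 and 2 correlated at 0.42 between genotypes, with only 2 pairs. Alternatives are given in the closing section.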

Additional observations from a re-analysis of the deposited data

How the results depend on the processing

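Over 24 alternatives the Klrg1 difference ran from 3.78 to 4.39. Of the 7 other receptor genes, 0 were called in 21 of 23 alternatives. Without KO 2, 4 were called, all lower (Klrd1, Klrb1c, Klre1 and Klri2), where 9666 of all genes were lower too, and 1, Klrd1, with no random block. A filter at log2 6 leaves none of the 7 to test. In KO 1 against WT, the count of 1 among the 7 became 0 with no variance trend, quantile normalization or median centring and 2 with robust eBayes.

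The 27 genes called over the whole table became 113 with no block, 52 on preparation means, 16 with the letter as a term, 157 after quantile normalization and 14 after median centring. The replicate block, with the preparation number as a fixed term, gave 677, and 0 of the 7 other receptor genes. It also called Tigit (adjusted p = 0.00693), Havcr2 (0.0348), Prdm1 (0.00202), Nfil3 (0.0323), Foxp3 (0.0409), S100a11 (0.00296) and 2 of the other Klr genes, both lower, Klri1 among them (0.0490). Leaving out 1 array gave 15 to 57. Leaving out both arrays gave 1465 without KO 1, 16900 without KO 2, 12 without WT 1 and 0 without WT 2. With no random block, an alternative chosen after seeing the data, it gave 144 without KO 1 and 13378 without KO 2. The block correlation fell to -0.63 and -0.64 without KO 1 or KO 2, so the counts with the block there are not comparable.

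Some signs turned. Klrk1 was -0.020 to 0.11 when 1 array was left out and -0.027 without KO 2. Klrb1c was 0.022 without KO 1. Median centring gave 0.0011 for Klrc1, 0.023 for Klre1, 0.010 for Ncr1 and 0.046 for 1700063H04Rik. Quantile normalization gave 0.016 for Ncr1, -0.026 for Phc1 and 0.069 for 1700063H04Rik. Without KO 1, values were -0.090 for Vav1, 0.027 for Cdh4, -0.036 for Lag3, 0.043 for Mug1, 0.054 for Mug2, -0.011 for Gm10319, 0.018 for 1700063H04Rik and 0.078 for Rimklb. The cause was not tested. The signal over background of the 7 dim probe sets is unknown and limits what they can show.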
